A study of Mus musculus with 5 samples.

Results

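The 4 mouse Notch receptor genes, Notch1, Notch2, Notch3 and Notch4, were read by gene symbol from a deposited table of RPKM values (reads scaled to gene length in kilobases and to the read total of the library) that holds 25873 named genes. All 4 were found, and 3 of them, all but Notch4, reached the mean of 1 RPKM set for testing, as did 11543 genes in all. Notch receptors are single-pass membrane proteins that bind Delta-like and Jagged ligands on neighbouring cells. Ligand binding leads to cleavage by ADAM and gamma-secretase proteases, and the freed intracellular part joins RBPJ and Mastermind proteins to switch on genes such as Hes1, Hey1 and Heyl. In developing muscle this signal is known for holding back differentiation of Pax7-positive progenitors, and Notch3 is also known from the mural cells of blood vessels and Notch4 from endothelium.

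RNA came from tdTomato-positive, lineage-negative cells sorted from the limb muscle of C57BL/6J fetuses at E16.5. All groups carried Pax7-CreER, a tamoxifen-activated recombinase made in cells that express the progenitor gene Pax7, and the Rosa-tdTomato reporter, and tamoxifen had been given orally to every mother, 240 mg per kg on 2 days starting at E12.5. The 2 wild-type (WT) libraries carried nothing further, the 1 Notch1 cKO library carried floxed Notch1 alleles (Notch1 f/f) and the 2 Notch2 cKO libraries floxed Notch2 alleles (Notch2 f/f), where cKO stands for conditional knock-out. Recombination is thus limited to cells that expressed Pax7 around the time of treatment, and their descendants. The labels do not say whether libraries of a group came from separate fetuses or litters, so p-values cover no more than spread between libraries. The fit takes that spread mostly from genes of similar level, not from the gene tested alone. Libraries are named by group and by the tag in the deposited table (Em2, Em3, Em4, Em8).

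The read totals implied by the RPKM values ran from 20740258 to 28827897 per library, and whole reads could be recovered for the receptors. Myogenic markers were abundant, with Myod1 between 109 and 188 RPKM and Myog between 944 and 1737 RPKM, while the endothelial genes Pecam1, Cdh5 and Kdr were at or below 0.656 RPKM, the mural genes Pdgfrb, Rgs5 and Myh11 at or below 0.551 RPKM and the pan-leukocyte gene Ptprc at or below 0.145 RPKM in every library. Other genes known from the same cell types were higher: Tek lay between 2.98 and 5.1 RPKM, Egfl7 between 15.9 and 33.9 RPKM and Mcam between 27.7 and 41.6 RPKM. The progenitor marker Pax7 stood between 9.90 and 13.4 RPKM in 4 libraries and at 4.15 RPKM in Notch2 cKO Em4. The summed RPKM of 10 interstitial fibroblast markers ran from 93.7 in WT Em2 and 159 in WT Em4 to 237 in Notch1 cKO Em8, with Notch2 cKO Em3 at 167 and Notch2 cKO Em4 at 232. In such bulk samples fewer cells of a type and less RNA per cell cannot be told apart.

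The receptors are paralogues, so the transcripts were first compared to see how far reads could be shared between them. Between the longest protein-coding transcripts in GENCODE M21, the longest identical run was 25 bases for Notch1 and Notch2 and 24 bases for Notch2 and Notch3. Both runs lie in coding sequence and in the same reading frame. They are shown, in capitals, with 15 bases on each side, because they are the stretches most alike among the 3 expressed receptors.
Notch1, transcript bases 939 to 963 in capitals: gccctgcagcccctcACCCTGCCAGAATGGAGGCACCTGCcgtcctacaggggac
Notch2, transcript bases 3743 to 3767 in capitals: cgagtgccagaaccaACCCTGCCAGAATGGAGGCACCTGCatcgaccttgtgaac
Notch2, transcript bases 2916 to 2939 in capitals: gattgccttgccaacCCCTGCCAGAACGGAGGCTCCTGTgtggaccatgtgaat
Notch3, transcript bases 3450 to 3473 in capitals: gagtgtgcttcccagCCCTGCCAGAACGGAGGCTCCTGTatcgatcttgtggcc
The other pairs shared at most 21 bases, so no 50-base window of 1 receptor transcript occurred in another receptor. Sequence was shared with other annotated genes instead, on either strand. This held for 13.7% of the 50-base windows of Notch1, 3.86% of those of Notch2 and 5.01% of those of Notch3. For Notch3, 7 shared windows lay in Gm30232 on chromosome 10, while the other partner genes overlap their receptor gene. The labels do not say whether counting used strand, so reads in the shared stretches cannot be told apart. The partner of Notch2, Gm42820, lies on the plus strand like Notch2, so strand would not separate their reads.

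The proximal promoters are shown because 3 of the receptors were expressed and 1 nearly silent. These are the 250 bases before the RefSeq start on GRCm38.p6, 5′ to 3′ on the strand of the gene, with matches to the GC box GGGCGG on either strand in capitals.
Notch1, chr2:26503823-26504072, minus strand: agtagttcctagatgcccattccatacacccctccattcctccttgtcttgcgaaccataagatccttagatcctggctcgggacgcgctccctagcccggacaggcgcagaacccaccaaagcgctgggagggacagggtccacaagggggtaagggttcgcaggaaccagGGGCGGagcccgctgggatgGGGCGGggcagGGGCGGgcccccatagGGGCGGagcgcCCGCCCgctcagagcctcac
Notch2, chr3:98013288-98013537, plus strand: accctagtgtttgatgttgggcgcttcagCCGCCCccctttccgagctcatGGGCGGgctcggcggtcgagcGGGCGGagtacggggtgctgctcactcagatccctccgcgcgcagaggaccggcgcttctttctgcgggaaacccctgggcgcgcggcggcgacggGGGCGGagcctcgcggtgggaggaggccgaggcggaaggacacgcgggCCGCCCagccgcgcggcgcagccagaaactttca
Notch3, chr17:32166891-32167140, minus strand: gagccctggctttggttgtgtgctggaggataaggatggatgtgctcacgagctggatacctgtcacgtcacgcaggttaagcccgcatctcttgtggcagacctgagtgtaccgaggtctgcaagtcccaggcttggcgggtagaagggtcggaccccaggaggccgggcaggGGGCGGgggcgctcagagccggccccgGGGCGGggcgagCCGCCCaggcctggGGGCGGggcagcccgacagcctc
Notch4, chr17:34564045-34564294, plus strand: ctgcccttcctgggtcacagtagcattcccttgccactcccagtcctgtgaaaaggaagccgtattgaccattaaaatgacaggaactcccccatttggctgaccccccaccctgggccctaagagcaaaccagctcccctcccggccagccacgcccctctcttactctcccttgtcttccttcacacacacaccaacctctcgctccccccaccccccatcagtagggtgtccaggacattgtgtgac
The windows of Notch1, Notch2 and Notch3 held 5, 5 and 4 GC boxes and that of Notch4 held 0, where 32.7% of 32851 promoter windows of this length held at least 1. Their GC content was 66%, 72% and 68.8% for Notch1, Notch2 and Notch3 and 58.4% for Notch4, against a median of 52.4% over all windows. The letters TGGGAA, the core of sequences that RBPJ is known to bind, were in none of the 4 windows on either strand, and were in 21.6% of all windows. The Notch1 window lies wholly inside the span of the gene in GENCODE M21 (26457903 to 26516663). At least 1 annotated Notch1 transcript thus begins upstream of it, and that start is not shown. A match or its absence describes these letters only.

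By the deposited values Notch1 was the most abundant receptor in WT cells, followed by Notch3, Notch2 and, far below, Notch4. RPKM is per length, so the levels of different genes can be set side by side, as far as the length behind each value holds. The exons of all Notch1 transcripts in GENCODE M21 span 14232 bases, against 9489 behind its RPKM, while for Notch3 the lengths are 8089 and 7943. The same reads spread over the longer lengths would put Notch1 below Notch3 in WT, so the order of these 2 depends on the length used. Notch1, on the minus strand of GRCm38 chromosome 2 (26457903 to 26516663, ENSMUSG00000026923.15), measured 7.26 RPKM in WT Em2 and 13.5 RPKM in WT Em4. Notch3, on the minus strand of GRCm38 chromosome 17 (32120820 to 32166852, ENSMUSG00000038146.8), measured 5.74 and 11 RPKM in the same libraries. Over the WT pair these levels overlap, but within each library Notch1 was above Notch3, with a ratio of 1.26 in WT Em2 (exact 95% interval 1.17 to 1.36) and 1.23 in WT Em4 (1.16 to 1.30). These intervals, and all others on ratios and levels of a single library, cover counting error only.

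Notch2, on the plus strand of GRCm38 chromosome 3 (98013527 to 98150361, ENSMUSG00000027878.11), measured 2.40 and 4.17 RPKM in WT Em2 and WT Em4, from 615 and 1001 reads. The Notch2 levels did not overlap those of Notch3 in WT. Notch4, on the plus strand of GRCm38 chromosome 17 (34564268 to 34588503, ENSMUSG00000015468.14), measured 0.124 and 0.205 RPKM, from 20 and 31 reads. As WT means, Notch1 was at 10.4 ± 4.45 RPKM, Notch3 at 8.40 ± 3.75, Notch2 at 3.28 ± 1.25 and Notch4 at 0.165 ± 0.0575 (SD, n = 2). Among the 11543 genes tested, Notch1 lay at the 47th and 57.2nd percentile in the WT libraries, Notch3 at the 41.9th and 52.1st and Notch2 at the 21.6th and 28.2nd.

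**Figure D1:**
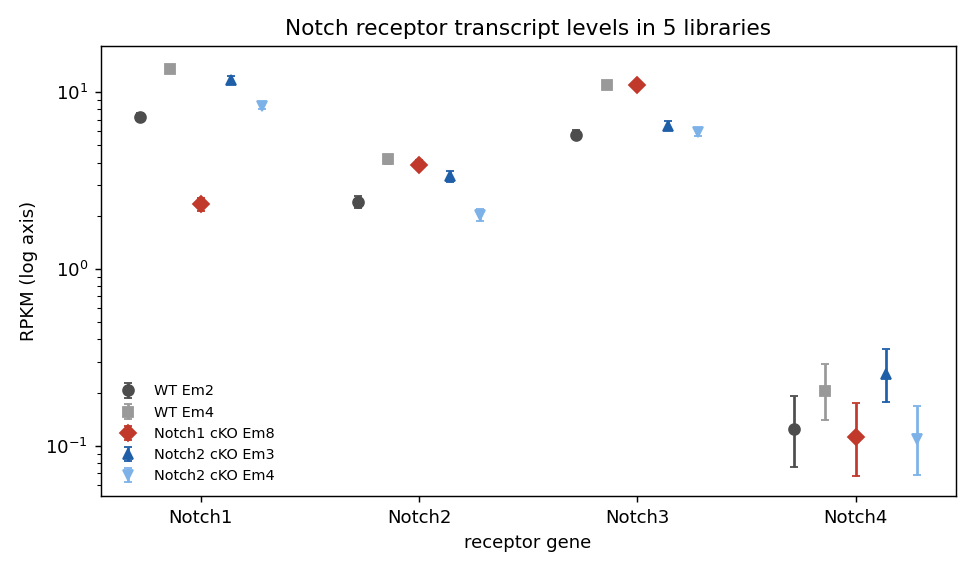
RPKM (log axis) of the 4 receptor genes in each of the 5 libraries, with exact 95% Poisson intervals from the recovered reads. Notch1 in Notch1 cKO Em8 lies at 2.33 RPKM, below the other 4 libraries, while Notch4 stays at or below 0.256 RPKM throughout.

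All 4 receptors were higher in WT Em4 than in WT Em2. WT Em4 was above WT Em2 by 1.87-fold for Notch1, 1.74-fold for Notch2, 1.92-fold for Notch3 and 1.66-fold for Notch4. The median of all genes tested was 1.19-fold in the same pair, and 9.4% of genes exceeded the Notch2 value, the smallest of the 3 tested receptors. The share of each receptor in the summed RPKM of the 4 was therefore much steadier than its level: Notch1 held 46.7% and 46.8%, Notch3 37.0% and 38.1%, Notch2 15.4% and 14.4% and Notch4 0.799% and 0.709% in WT Em2 and WT Em4. The summed receptor level itself was 15.5 RPKM in WT Em2 and 29.0 RPKM in WT Em4.

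The receptor transcripts are long, with 9489 bases for Notch1, 10506 for Notch2, 7943 for Notch3 and 6604 for Notch4 behind the RPKM values, and the WT libraries differed by gene length. Over the 714 genes tested of at least 7000 bases, the median of WT Em2 minus WT Em4 on the log2(RPKM + 1) scale was −0.42, against 0.374 over the 1460 genes under 1000 bases. On this scale the difference between the WT libraries was −0.817 for Notch1, −0.605 for Notch2 and −0.837 for Notch3. With the length trend of each library removed it was −0.606, −0.384 and −0.645. The WT difference of the receptors thus moved with gene length in part, and was smaller but of the same sign after removal of the trend.

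**Figure D2:**
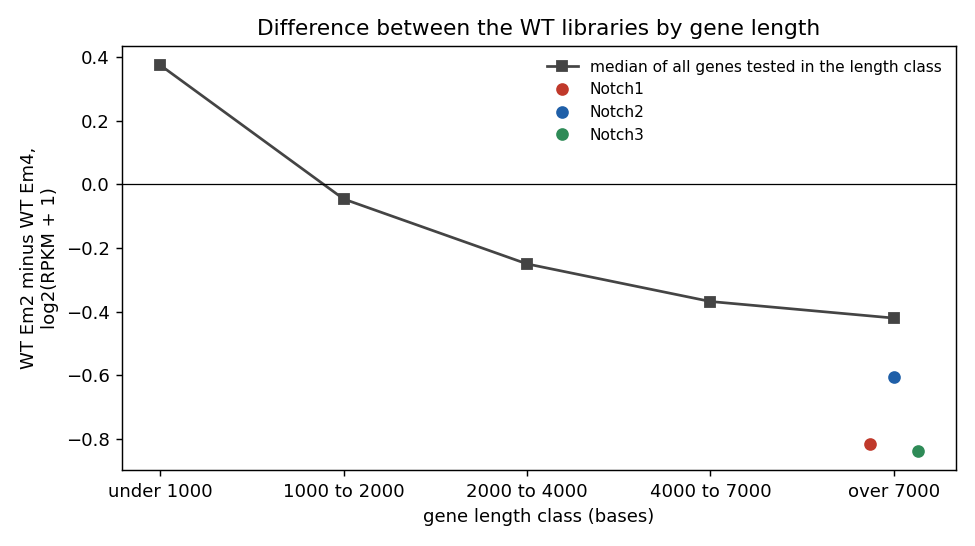
WT Em2 minus WT Em4 on the log2(RPKM + 1) scale, as the median of all genes tested in each length class (line) and for Notch1, Notch2 and Notch3 (points, at the class of at least 7000 bases). The receptors lie below the median of their class, −0.42.

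Setting Notch1 cKO against WT asks what became of the receptor transcripts when Notch1 was deleted in the Pax7 lineage. Notch1 was low in the Notch1 cKO library, and neither Notch2 nor Notch3 left the range of the WT libraries. Notch1 stood at 2.33 RPKM in Notch1 cKO Em8, from 565 reads, against 7.26 and 13.5 RPKM in WT. The knockout value is below both WT values, and 26.1% of all genes tested were likewise lower than both. Notch1 was the 1 receptor of 3 outside the WT range, where 50.4% of all genes tested were. Notch1 fell by 1.72 on the log2(RPKM + 1) scale (SE 0.39, 95% interval −2.50 to −0.94, limma adjusted p = 0.0443). This is a fold of 0.304 (0.177 to 0.522) of RPKM + 1. Of the 3 receptors tested 1 was called, in the lower direction, while 0.0693% of all genes tested were called and 0.0260% were called lower. The call was lost without WT Em4 (adjusted p = 0.746), Notch2 cKO Em3 (0.116) or Notch2 cKO Em4 (0.12), with the length trend removed (0.245), after quantile normalization (0.0916), with only the groups compared in the fit (0.119) and with no filter on low values (1). The range over all alternatives was 0.000361 to 1. The remaining Notch1 RNA was not resolved by exon, and the share of cells that escaped recombination was not tested.

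Notch2 stood at 3.90 RPKM in Notch1 cKO Em8, from 1047 reads, between the WT values of 2.40 and 4.17 RPKM. Its log2 fold change was 0.23 (SE 0.40, 95% interval −0.56 to 1.01, limma adjusted p = 1). Notch3 stood at 11 RPKM from 2241 reads, level with WT Em4 at 11 and above WT Em2 at 5.74 RPKM. Its log2 fold change was 0.42 (SE 0.39, 95% interval −0.36 to 1.19, limma adjusted p = 1). In the main fit the upper ends of the intervals lie at a rise of RPKM + 1 of 2.01-fold for Notch2 and 2.29-fold for Notch3. With no filter on low values the upper ends are higher, at 1.36 for Notch2 and 1.50 for Notch3 on the log2 scale. The limit on a rise thus depends on the setting, and the data do not show that the transcripts were unaltered. Notch4, at 0.113 RPKM from 19 reads, lay below the WT values of 0.124 and 0.205 RPKM, with Poisson intervals that overlap (0.0678 to 0.176 in Notch1 cKO Em8, 0.0758 to 0.192 in WT Em2). Against WT Em4 alone, the Notch2 and Notch3 fold changes were −0.08 and −0.00085, and against WT Em2 alone they were 0.53 and 0.84.

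With Notch1 low and Notch3 near the upper WT value, Notch3 was the leading receptor in Notch1 cKO Em8. Notch3 held 63.5% of the summed receptor RPKM there, Notch2 22.4%, Notch1 13.4% and Notch4 0.648%. The sum of the 4 was 17.4 RPKM, between the WT sums of 15.5 and 29.0 RPKM. The ratio of Notch3 to Notch2, to which Notch1 does not contribute, was 2.83 in Notch1 cKO Em8 (exact 95% interval 2.63 to 3.05), 2.40 in WT Em2 (2.17 to 2.65) and 2.65 in WT Em4 (2.46 to 2.86). The interval of the knockout library overlaps those of both WT libraries. The ratio of Notch1 to Notch2 was 0.597 (0.538 to 0.662), against 3.03 and 3.25 in WT.

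**Figure D3:**
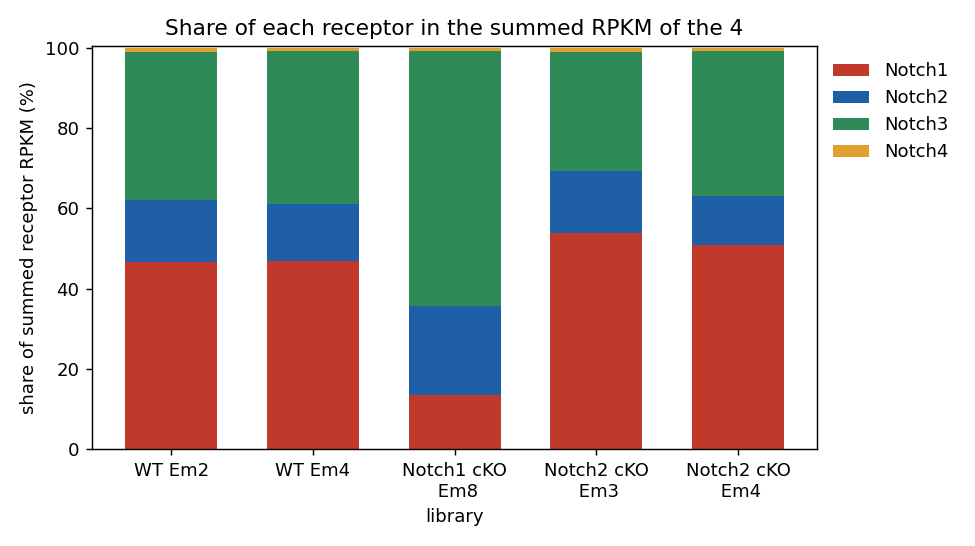
Share (%) of each receptor in the summed RPKM of the 4 receptor genes, 1 bar per library. The WT bars are alike, with Notch1 at 46.7% and 46.8%, and Notch3 takes the largest share, 63.5%, in Notch1 cKO Em8.

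Setting Notch2 cKO against WT asks the same for Notch2. No receptor differed by the test, and the targeted gene itself overlapped WT. Notch2 measured 3.35 RPKM in Notch2 cKO Em3 and 2.03 RPKM in Notch2 cKO Em4, from 729 and 615 reads, against 2.40 and 4.17 RPKM in WT. The lower of these lies under both WT values and the higher lies between them. The log2 fold change of Notch2 was −0.21 (SE 0.32, 95% interval −0.85 to 0.43, limma adjusted p = 0.905), a fold of 0.866 (0.556 to 1.35) of RPKM + 1. A fall below 0.556-fold on this scale is therefore outside the interval. The labels do not say which exons are floxed, and an RPKM per gene sums reads over every exon, so this value is no check of the Notch2 cKO label.

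In Notch2 cKO Em3 and Em4 Notch1 measured 11.8 and 8.39 RPKM, both between the WT values of 7.26 and 13.5 RPKM. Its log2 fold change was 0.00 (SE 0.32, 95% interval −0.63 to 0.64, limma adjusted p = 0.999), so that the interval of the fold runs from 0.644 to 1.56. Notch3 stood at 6.48 and 5.97 RPKM, also between the WT values of 5.74 and 11 RPKM. Its log2 fold change was −0.32 (SE 0.32, 95% interval −0.95 to 0.31, limma adjusted p = 0.842). Notch4 stood at 0.256 and 0.110 RPKM from 35 and 21 reads, spread more widely than the WT pair. Of the 3 receptors tested 0 were called by limma, 0 had an unadjusted p under 0.05 and 0 were called by limma-voom on the recovered reads, while 0.537% of all genes tested were called by limma. No receptor had Notch2 cKO values clear of the WT values, as 37.7% of all genes tested did. The signs of these estimates turned when single libraries were left out, for Notch1 (−0.41 to 0.41), Notch2 (−0.51 to 0.10) and Notch3 (−0.74 to 0.10).

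**Figure D4:**
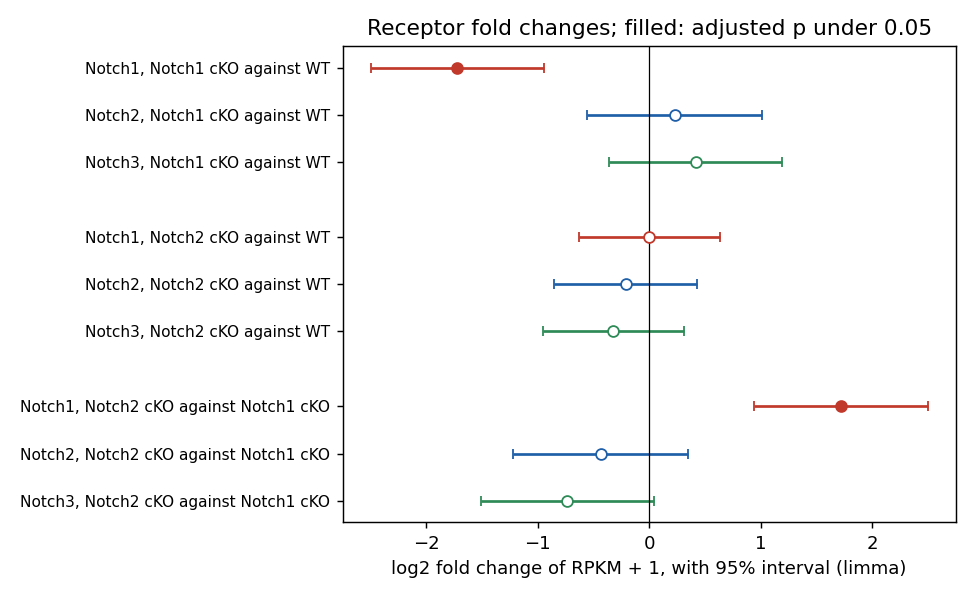
Log2 fold change of RPKM + 1 with its 95% interval from limma for the 3 receptors tested, in each comparison, with filled points for an adjusted p under 0.05. The filled points are Notch1 in Notch1 cKO against WT (−1.72) and in Notch2 cKO against Notch1 cKO (1.72).

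Within a library the Notch2 transcript was low beside Notch1 in both Notch2 cKO libraries. The ratio of Notch1 to Notch2 was 3.53 in Notch2 cKO Em3 (exact 95% interval 3.25 to 3.85) and 4.13 in Notch2 cKO Em4 (3.78 to 4.52), against 3.03 (2.76 to 3.32) and 3.25 (3.02 to 3.49) in WT Em2 and WT Em4. Both knockout ratios are above both WT ratios, although the interval of Notch2 cKO Em3 overlaps those of both WT libraries. With 2 libraries on each side, the smallest two-sided p of an exact permutation test is 0.333. Of the other 11542 genes tested, 31.0% also had a higher ratio to Notch2 in both Notch2 cKO libraries than in both WT libraries. The ratio of Notch3 to Notch2 gave no such order: it was 1.94 in Notch2 cKO Em3 (1.76 to 2.13), below both WT ratios, and 2.94 in Notch2 cKO Em4 (2.67 to 3.24), above both. Notch1 held 54.0% of the summed receptor RPKM in Notch2 cKO Em3 and 50.8% in Notch2 cKO Em4, Notch3 29.6% and 36.2%, and Notch2 15.3% and 12.3%. The sum itself was 21.9 RPKM in Notch2 cKO Em3 and lower, between the WT sum of 15.5 RPKM and 17.4 RPKM in Notch1 cKO Em8, in Notch2 cKO Em4, the library with the lowest Pax7. On the log2(RPKM + 1) scale, Notch2 cKO Em3 minus Em4 was 0.45 for Notch1, 0.52 for Notch2 and 0.1 for Notch3. With the length trend of each library removed it was 0.0777, 0.107 and −0.196. The parts of progenitor content and gene length in the lower sum of Notch2 cKO Em4 were not tested.

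**Figure D5:**
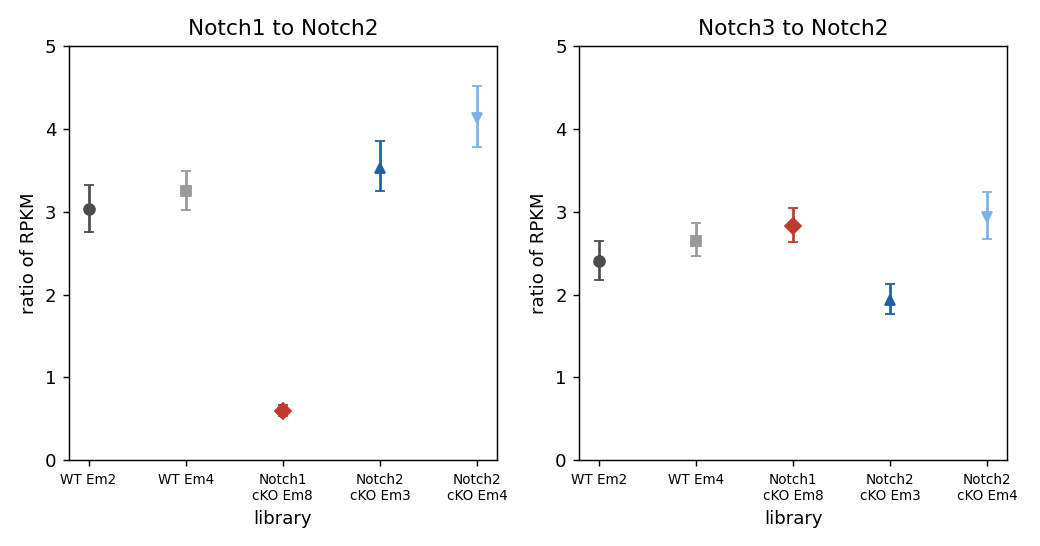
Ratio of RPKM of Notch1 to Notch2 (left) and of Notch3 to Notch2 (right) in each library, with exact 95% intervals for counting error. Notch1 to Notch2 is 3.53 and 4.13 in the Notch2 cKO libraries, above the WT values of 3.03 and 3.25, while Notch3 to Notch2 falls on either side of WT.

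The difference between the knockouts was tested directly, because both comparisons above use the same WT libraries. Notch1 was higher in Notch2 cKO than in Notch1 cKO, with a log2 fold change of 1.72 (SE 0.39, 95% interval 0.94 to 2.50, limma adjusted p = 0.0148). Of the 3 receptors tested 1 was called, in the higher direction, against 0.485% of all genes tested called and 0.277% called higher. The call was lost without Notch2 cKO Em3 (adjusted p = 0.241), after quantile normalization (0.0738), with the length trend removed (0.0702) and with no filter (0.86). Notch3, at 11 RPKM in Notch1 cKO Em8, then 6.48 and 5.97 RPKM in Notch2 cKO, had a log2 fold change of −0.74 (SE 0.39, 95% interval −1.51 to 0.04, limma adjusted p = 0.621). Notch2 had a log2 fold change of −0.43 (SE 0.40, 95% interval −1.22 to 0.35, limma adjusted p = 0.814).

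The column names of the table carry digits that no label explains, and these allow comparisons between libraries with the same digits. Notch2 cKO Em4 and WT Em4 share the same digits, and in this pair Notch1, Notch2 and Notch3 were lower in Notch2 cKO by −0.632, −0.77 and −0.789 on the log2(RPKM + 1) scale, against a median of 0.0297 for all genes tested. All 3 receptors thus lay lower in the knockout library of this pair, the targeted gene no more than Notch3. Genes of at least 7000 bases lay lower there too. Their median deviation from the gene mean was −0.177 in Notch2 cKO Em4 and 0.176 in WT Em4. With the length trend removed, the receptors stayed lower in Notch2 cKO Em4, by less. Relative to its mean over the libraries, Notch1 was then at 0.394 in Notch2 cKO Em4 and 0.615 in WT Em4. Notch2 was at −0.121 and 0.192, and Notch3 at −0.116 and 0.349. Notch1 cKO Em8 and Notch2 cKO Em3 share another set of digits, and there the difference of Notch1 cKO minus Notch2 cKO was −1.95 for Notch1, 0.173 for Notch2 and 0.688 for Notch3, against a median of −0.127. Each of these pairs has 1 library a group and no test. Notch1 cKO Em8 and the WT libraries do not share digits, so the digits and the group cannot be told apart in that comparison.

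The genes around the receptors in the pathway were given by lists. For scale, an unadjusted p under 0.05 was reached by 213 of all 11543 genes tested in Notch1 cKO against WT. In Notch2 cKO against WT 881 reached it, and in Notch2 cKO against Notch1 cKO 1000. Of 8 Notch ligands and ligand-like genes, 6 were tested, with 0 called in Notch1 cKO against WT (2 above 0, median log2 fold change −0.16 beside 0.01 for all genes) and 0 called in Notch2 cKO against WT (6 above 0, median 0.38 beside 0.14), although 1 and 2 of them had an unadjusted p under 0.05. Dll1, a ligand made by differentiating myoblasts, stood at 7.71 and 11.5 RPKM in WT, 7.67 RPKM in Notch1 cKO Em8, then 21.1 and 15.8 RPKM in Notch2 cKO (limma adjusted p = 0.285 in Notch2 cKO against WT). Its Notch2 cKO values lie above both WT values, as they did for 28.3% of all genes tested. Jag1, another ligand, stayed between 4 and 5.86 RPKM in all libraries, Jag2 between 0.859 and 2.28 RPKM, and the endothelial ligand gene Dll4 at or below 0.101 RPKM. Dlk1, an imprinted non-canonical ligand-like gene, was the most abundant of the list, at 229 and 342 RPKM in WT, 404 RPKM in Notch1 cKO Em8, then 320 and 381 RPKM in Notch2 cKO.

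Between the knockouts 1 of the 6 ligand genes tested was called, in the higher direction, where 0.485% of all genes tested were called and 0.277% called higher. Dner, which encodes a transmembrane protein with EGF repeats that can bind Notch1, measured 2.13 RPKM in Notch1 cKO Em8, 4.85 and 5.14 RPKM in WT, 7.94 RPKM in Notch2 cKO Em3 and 10.2 RPKM in Notch2 cKO Em4. It was higher in Notch2 cKO than in Notch1 cKO (log2 fold change 1.67, SE 0.39, limma adjusted p = 0.0207), with WT between them, and 47.7% of all genes tested were likewise higher in both Notch2 cKO libraries than in Notch1 cKO Em8. The call was lost without Notch2 cKO Em3 (log2 fold change 1.84, adjusted p = 0.0777) or Notch2 cKO Em4 (1.51, 0.525), after quantile normalization (1.55, 0.0635), with the length trend removed (1.56, 0.0997) and with no filter (1.67, 0.86). The fold change thus stayed between 1.51 and 1.84 in these settings.

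Receptor processing and modification genes did not pass. Of 10 genes for the proteases that mature and cleave the receptor 9 were tested, of 9 glycosylation genes 8, of 13 trafficking and turnover genes 12 and of 11 nuclear complex genes 9, and limma called 0 in each of the 3 comparisons. Of these lists together, an unadjusted p under 0.05 was reached only in processing (1 gene in Notch2 cKO against WT) and in trafficking (1 gene in each comparison with Notch2 cKO). Over all 11543 genes tested, 881 in Notch2 cKO against WT and 1000 in Notch2 cKO against Notch1 cKO did so. The most abundant members in WT were Psenen, a gamma-secretase subunit (90.3 and 55.6 RPKM in WT, 89.8 in Notch1 cKO Em8, then 55.8 and 61.8 in Notch2 cKO), the ubiquitin ligase gene Nedd4 (105 and 158 RPKM in WT, 126 in Notch1 cKO Em8, then 138 and 209 in Notch2 cKO), the fringe gene Rfng (8.53 and 14.2 RPKM in WT, 11.5 in Notch1 cKO Em8, then 12.7 and 12.3 in Notch2 cKO) and the RBPJ cofactor gene Snw1 (81.0 and 90.1 RPKM in WT, 90.0 in Notch1 cKO Em8, then 102 and 97.2 in Notch2 cKO). Rbpj itself, the DNA-binding partner of all 4 receptors, stood at 8.77 and 13.5 RPKM in WT, 12.2 in Notch1 cKO Em8, then 13.2 and 10.3 RPKM in Notch2 cKO. Lfng, a fringe glycosyltransferase that changes which ligands a receptor answers to, lay between 1.14 and 4.28 RPKM.

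Of 11 Notch target genes 8 were tested and 0 called by limma in any comparison, with 2, 1 and 2 at an unadjusted p under 0.05 in Notch1 cKO against WT, Notch2 cKO against WT and Notch2 cKO against Notch1 cKO. Among all 11543 genes tested 213, 881 and 1000 were under it in the same comparisons. Hes1, a direct target, was at 96.1 RPKM in the library with the lowest Notch1 and at 143 to 271 RPKM in the other 4 (limma adjusted p = 0.16 in Notch1 cKO against WT). Hey1 had its lowest level in the same library, 13.7 RPKM against 18.6 to 30.7 RPKM elsewhere (adjusted p = 1). Hes1 and Hey1 were lower there than in both WT libraries, as 26.1% of all genes tested were. Heyl, at 12.8 RPKM in Notch1 cKO Em8, lay within the 11.1 to 20.1 RPKM of the other libraries. Cdkn1a, the most abundant of the list and a target of other pathways too, stood at 303 and 343 RPKM in WT and 389 to 484 RPKM in the knockout libraries. Its Notch2 cKO values lie above both WT values, as they did for 28.3% of all genes tested. Of 14 progenitor genes and 12 differentiation genes, all tested, limma called 0 in each comparison, with medians of 0.04 and −0.17 in Notch1 cKO against WT (all genes 0.01) and 0.07 and 0.36 in Notch2 cKO against WT (all genes 0.14). In the latter 8 of 14 progenitor genes and 12 of 12 differentiation genes had fold changes above 0. There 1 progenitor gene and 3 differentiation genes reached an unadjusted p under 0.05. In Notch2 cKO against Notch1 cKO 5 progenitor genes and 3 differentiation genes did, and in Notch1 cKO against WT 0 of either list. The most abundant progenitor gene, Cdh15, which encodes M-cadherin, measured 117 and 193 RPKM in WT, 153 in Notch1 cKO Em8, then 155 and 196 in Notch2 cKO.

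Markers of cells that could bring their own receptors into the sort were counted in the same way. Of 12 endothelial markers 4 were tested, of 9 mural markers 2 and of 6 Schwann and neural markers 2, with 0 called by limma in any comparison. At an unadjusted p under 0.05 stood 1 endothelial marker in Notch1 cKO against WT, and 1 of each list in Notch2 cKO against Notch1 cKO. Of all 11543 genes tested 213 and 1000 did in these comparisons, and 881 in Notch2 cKO against WT. The sort had stained for CD31, CD45 and Ter119, which mark endothelium, leukocytes and red cells. The summed endothelial level ran from 21.9 to 28.8 RPKM in WT and Notch2 cKO and was 41.6 RPKM in Notch1 cKO Em8, of which Egfl7 made 33.9 RPKM, with Erg at 0 in both WT libraries. The summed mural level was 32.9 and 49.2 RPKM in WT, 44.6 in Notch1 cKO Em8, then 39.9 and 41.8 RPKM in Notch2 cKO, of which Mcam, a gene also expressed outside mural cells, made 27.7 to 41.6 RPKM, with Anpep at 0 in WT Em4. Of 10 interstitial fibroblast markers 8 were tested, and all 8 had log2 fold changes above 0 in both knockouts against WT, with 1 called higher in Notch1 cKO (median 0.94) and 0 called in Notch2 cKO (median 0.67, 6 at an unadjusted p under 0.05). In Notch1 cKO against WT 0.0433% of all genes tested were called higher. The called gene was Mfap5, of microfibrils, at 6.12 and 6.32 RPKM in WT, 23.4 RPKM in Notch1 cKO Em8, then 14 and 15 RPKM in Notch2 cKO (adjusted p = 0.0169 and 0.0667).

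Of 10 haematopoietic markers 6 were tested, with 0 called in Notch1 cKO against WT (3 at an unadjusted p under 0.05). In Notch2 cKO against WT 2 were called higher and 1 lower, where 0.355% of all genes tested were called higher and 0.182% lower, and between the knockouts 2 were called higher and 2 lower, where 0.277% were called higher and 0.208% lower. The mast cell genes Cpa3 (1.18 and 1.32 RPKM in WT, 0.189 in Notch1 cKO Em8, then 2.62 and 7 in Notch2 cKO) and Tpsb2 were the higher ones. The globin genes Hba-a1 (180 and 252 RPKM in WT, 347 in Notch1 cKO Em8, then 101.0 and 89 in Notch2 cKO) and Hbb-bs were lower in Notch2 cKO, Hbb-bs by the test only against Notch1 cKO. The summed level of the 10 markers was 292 and 382 RPKM in WT, 583 in Notch1 cKO Em8, then 187 and 180 RPKM in Notch2 cKO, with Ptprc at 0 in WT Em2 and Adgre1 at 0 in WT Em4. The part of any of these cells in the receptor levels was not tested.

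The genes whose pattern over the 5 libraries was most like that of each receptor were found by the root mean square difference of their centred log2(RPKM + 1) values. Numbered gene models, pseudogenes and small RNAs were left out of this search. For Notch2 these were Zswim8, Tcf20 and Phf2, with differences of 0.039, 0.044 and 0.048, where the receptor's own spread around its mean was 0.30. Notch3 had Nr1d1, Mprip and Pxdn as its nearest, at 0.057, 0.064 and 0.072, beside a spread of 0.38. For Notch1 the nearest were Platr14, Duxbl1 and Snai1, at 0.32, 0.33 and 0.34, beside a spread of 0.75. Among the genes searched, Notch1 thus had none as near to it as those of the other receptors, beside its larger spread. Of the 11543 genes tested, 73 had a larger spread than Notch1. Zswim8 shows the Notch2 pattern in levels, with 2.80 and 4.98 RPKM in WT, 4.6 in Notch1 cKO Em8, then 4.28 and 2.52 RPKM in Notch2 cKO. Notch2 and Notch3 differed from each other by 0.19, and Notch1 from Notch2 and Notch3 by 0.83 and 0.94. All genes share these 5 libraries and their depth and length composition.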

How the data were processed

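The authors deposited 1 table of RPKM values, with 27179 rows and a column per library, per the file headers. SMART-Seq v4 libraries were read as paired ends, per the labels' protocols. Submitters' processing notes give bcl2fastq 2.20.0 and build mm10. Aligner, counter and annotation: not given in the sources used here. Rows with no gene name (1306 rows, 2.19% to 3.07% of summed RPKM) were left out. Columns name the group but no replicate.

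Whole reads, gene lengths and read totals were recovered from the steps between RPKM values; 96.9% of 14696 lengths were whole within 0.02, against 4% by chance.

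Tests used limma 3.58.1 (R 4.3.3, trend) on log2(RPKM + 1), for named genes averaging at least 1 RPKM over the 5 libraries, all fitted together, two-sided, with Benjamini-Hochberg adjustment and a threshold of 0.05. The fit had 2 residual and 103.8 prior degrees of freedom, so the spread behind each test comes mostly from genes of similar level. Notch1 cKO, with 1 library, adds no spread of its own. The scale understates changes of low genes. The script was tested on simulated data.

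The members and lists were chosen with earlier results of these data known. Genes named were the receptors, 12 set pathway and muscle genes, from each list the genes called and that of highest mean RPKM in WT, and the 3 nearest patterns per receptor. Defining markers and 0610009E02Rik were named after their values were seen. Sequences are from RefSeq (GRCm38.p6) and GENCODE M21. Gene positions are from GENCODE M21 and may differ from those behind the deposited values. Alternatives covered the pseudocount, filter, scaling, length trend, limma-voom on recovered reads, groups fitted and each library left out.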

Additional observations from a re-analysis of the deposited data

Results flagged for a closer look

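Notch1 was flagged because its change differed between the knockouts under the same contrast with WT. The effect of Notch2 cKO minus that of Notch1 cKO was 1.72 on the log2(RPKM + 1) scale (limma adjusted p = 0.0148), with both Notch2 cKO libraries above the Notch1 cKO library. Over the alternatives the adjusted p ranged from 0.00204 to 0.86. Notch1 is the gene targeted in Notch1 cKO.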

How the results depend on the processing

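Over 9 receptor results and 117 alternative values, 97 kept their direction and side of the threshold, 11 lost a call and 9 changed sign. For Notch1 in Notch1 cKO against WT the call was lost with no filter (−1.72), after quantile normalization (−1.79), with the length trend removed (−1.80) and with only the groups compared (−1.72). Leaving out single libraries gave −2.13 to −1.31. For Notch1 in Notch2 cKO against Notch1 cKO it was lost with no filter (1.72), after quantile normalization (1.61) and with the length trend removed (1.92), and leave-one-out values ran from 1.49 to 1.95. Notch1 in Notch2 cKO against WT turned to −0.19 after median-of-ratios scaling and −0.18 after quantile normalization, with leave-one-out values of −0.41 to 0.41. The leave-one-out ranges that crossed 0 were −0.077 to 0.53 (Notch2) and −0.00085 to 0.84 (Notch3) in Notch1 cKO against WT, and −0.51 to 0.10 (Notch2) and −0.74 to 0.10 (Notch3) in Notch2 cKO against WT. The cause was not tested, except that leaving out a library leaves fewer samples. The 7 results that were not called stayed so under every alternative run. In Notch2 cKO against Notch1 cKO the fold change stayed between −0.92 and −0.59 for Notch3 and between −0.69 and −0.17 for Notch2. The Notch3 interval excluded 0 after median-of-ratios scaling (−1.52 to −0.20), quantile normalization (−1.58 to −0.25) and limma-voom (−1.59 to −0.066). It also did with only the groups compared and without either WT library. It included 0 with the other pseudocounts, with no filter or that of 5 RPKM, with the length trend removed and without either Notch2 cKO library. All genes called numbered 8 in Notch1 cKO against WT, 0 with no filter, 22 after median-of-ratios scaling and 3 with limma-voom. In Notch2 cKO against WT they numbered 62 (41 higher, 21 lower), 0, 81 (41 higher, 40 lower) and 1, with 4 (3 higher, 1 lower) after quantile normalization and 16, all higher, with the length trend removed. Leaving out WT Em4 gave 52 higher and 235 lower, and leaving out WT Em2 gave 7 higher and 6 lower, so the share of 0.537% depends on which WT library is used. In Notch1 cKO against WT leaving out WT Em4 left 1, and removing the length trend 0. In Notch2 cKO against Notch1 cKO the 32 higher and 24 lower became 0 with no filter or with the length trend removed, 47 and 39 after median-of-ratios scaling, 5 and 8 after quantile normalization, 5 and 9 with limma-voom and 22 and 13 without Notch2 cKO Em4. In Notch2 cKO against WT the median over genes of the log2 fold change went from 0.138 to −0.0445 after median-of-ratios scaling. Notch4 was tested only with no filter (adjusted p = 1, 0.937 and 0.871 in the 3 comparisons). No paired analysis was possible because the columns carry no replicate numbers of the labels. Depth limited Notch4, at 19 to 35 reads a library.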

Other observations

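The genes beside Notch1 on chromosome 2 were read as well, and were singled out after their values were seen. Of 23 annotated genes within 150 kb of Notch1, 11 were tested, and limma called 0 in Notch1 cKO against WT (6 above 0, median 0.16 beside 0.01 for all genes). Egfl7, which encodes a secreted protein known from endothelium (GRCm38 chromosome 2, 26580014 to 26593120, plus strand), measured 33.9 RPKM in Notch1 cKO Em8 and 15.9, 18.1, 17.2 and 19.5 RPKM in WT Em2, WT Em4, Notch2 cKO Em3 and Notch2 cKO Em4 (log2 fold change 0.96, limma adjusted p = 0.991). In that library the endothelial genes Pecam1, Cdh5 and Kdr measured 0.332, 0.0982 and 0.187 RPKM. Their WT values were 0.173 and 0.212, 0.0103 and 0.0549, and 0.0676 and 0.176 RPKM. Each Notch1 cKO value was above both WT values, where 50.4% of all genes tested lay outside the WT range on either side. Pecam1, Cdh5 and Kdr averaged under 1 RPKM and were not tested. Tek measured 4.06 RPKM in Notch1 cKO Em8, between the WT values of 2.98 and 5.1 RPKM. In Notch2 cKO Em3 Pecam1, Cdh5 and Kdr were higher still, at 0.656, 0.133 and 0.292 RPKM. Notch2 cKO Em4 had them at 0.577, 0.0174 and 0.178 RPKM. Tek measured 3.22 RPKM in Notch2 cKO Em3 and 3.97 RPKM in Notch2 cKO Em4. The part of endothelial cells in the Egfl7 level was not tested.

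On the other side of Notch1, 0610009E02Rik (GRCm38 chromosome 2, 26445696 to 26459390, plus strand) overlaps the end of Notch1 on the opposite strand and shares 970 of its 9439 transcript windows of 50 bases. Its level was 1.59 RPKM in Notch1 cKO Em8, from 67 reads, against 0.497, 0.505, 0.527 and 0.190 RPKM, from 20, 19, 18 and 9 reads, in WT Em2, WT Em4, Notch2 cKO Em3 and Notch2 cKO Em4. It was highest in the library in which Notch1 was lowest, and was not tested because its mean was under 1 RPKM. Without strand in the counting, reads from the shared stretch cannot be assigned to either gene.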
